A study of Mus musculus with 18 samples.

Results

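NEDD and PCNB are the pair of chemicals in this study that were given to mice in feed and labelled negative for lung tumours, and what they did alike in the lung was measured as the mean of the NEDD and PCNB groups minus the feed control group. The members are the 9 arrays of these groups, of 18 in all, and every probe set that carries a single gene symbol (18193 genes). NEDD is N-(1-naphthyl)ethylenediamine dihydrochloride, fed at 2000 ppm to the mice numbered 12, 14 and 15. PCNB is the fungicide pentachloronitrobenzene, fed at 8187 ppm to mice 16, 18 and 20. The feed control mice 27, 28 and 29 had chow without a chemical. All were female B6C3F1 mice, a hybrid strain of rodent bioassays, 18 weeks old after 13 weeks of treatment on 7 days per week. RNA came from the right lung lobe, 1 animal per array and 3 per group. Set beside them here were NDA (1,5-naphthalenediamine, 2000 ppm in feed, labelled positive, mice 2, 4 and 5) and the corn oil control (gavage of 5 ml/kg on 5 days per week, mice 22, 24 and 25). The other gavage group, benzofuran at 240 mg/kg (mice 6, 8 and 10, labelled positive), entered the fit for its spread only. The doses of NEDD and PCNB differ, so that their values stand side by side and not at a matched dose.

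The lung meets chemicals from feed through the blood, and its club, endothelial and alveolar cells carry enzymes that oxidise, hydrolyse and conjugate them. The aryl hydrocarbon receptor (AhR) is a cytosolic protein that many planar aromatic compounds bind. It then pairs with ARNT in the nucleus and switches on Cyp1a1, the monooxygenase best known as its target. Carboxylesterases split ester and amide bonds in drugs and lipids. NRF2 is the transcription factor that raises antioxidant and conjugating enzymes under oxidant stress.

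Levels are the deposited signals on a log2 scale, and a log2 fold change is a difference of group means, given with its standard error. Probe sets were tested with limma where their mean over the 18 arrays passed a filter on low signal, which left 22988 probe sets of 13001 genes, while 5192 genes had only dimmer ones. A probe set was called where its p after Benjamini-Hochberg adjustment over all tested probe sets was under 0.05. Markers of lung stood high on all arrays, with the surfactant gene Sftpc at 14.52 to 14.61 on NEDD arrays, 14.59 to 14.63 on PCNB arrays and 14.57 to 14.62 on feed control arrays. Some measures of RNA quality moved with the comparison. The 3' minus 5' signal of the actin control, which grows as RNA is shortened, was 0.350 to 0.530 on NEDD arrays, 0.352 to 0.581 on PCNB arrays and 0.580 to 0.726 on feed control arrays. The absorbance ratio of the RNA, a measure of purity, was 2.12 to 2.66 with NEDD, 1.85 to 2.87 with PCNB and 1.80 to 2.22 in feed control. The RNA integrity number was 9.1 with NEDD (not given for mouse 12), 8.3 to 8.9 with PCNB and 8.3 to 8.9 in feed control. The array of benzofuran 10 stood apart from the rest, with a limma array weight of 0.112.

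Only 2 probe sets were called for the shared effect, both higher and each the sole probe set with that single symbol. They were Cyp1a1 and Ces1g, a carboxylesterase. These are 0.00870% of the tested probe sets. By limma 0 were called lower, and 1371 had an unadjusted p under 0.05 in either direction, where 1149 would be expected by chance. For NEDD alone 1923 probe sets had such a p, and for PCNB alone 596, fewer than expected by chance. The median log2 fold change of the shared effect over all tested probe sets was -0.02. Both genes lay above every feed control array on all 6 NEDD and PCNB arrays. Their promoters are shown because these genes carry the result. The 250 bases before the transcript start are RefSeq's, assembly GRCm38.p6, and capitals mark a match to GCGTG, the core of AhR binding sites. Cyp1a1 starts downstream of chr9:57697363-57697612 on the plus strand and Ces1g downstream of chr8:93337210-93337459 on the minus strand.
Cyp1a1: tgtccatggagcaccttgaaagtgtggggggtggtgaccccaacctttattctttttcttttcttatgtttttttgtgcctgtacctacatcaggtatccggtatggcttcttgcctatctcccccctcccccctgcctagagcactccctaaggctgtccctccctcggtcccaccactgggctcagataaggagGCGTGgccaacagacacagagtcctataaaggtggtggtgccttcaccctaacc
Ces1g: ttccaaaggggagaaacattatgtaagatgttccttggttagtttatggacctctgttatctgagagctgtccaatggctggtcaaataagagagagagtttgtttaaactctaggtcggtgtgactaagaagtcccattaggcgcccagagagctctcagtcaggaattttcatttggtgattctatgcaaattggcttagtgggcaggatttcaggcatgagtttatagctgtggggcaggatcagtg
The Cyp1a1 window held 1 match, which begins 54 bases before the start, and the Ces1g window 0. Of 32851 promoter windows of this length, with a single chromosome left out of the set, 28.2% held GCGTG on either strand. The core of the antioxidant response element, TGACNNNGC, was also looked for on both strands, and a match of either motif could overlap one of the other. It occurred in neither window and in 10.2% of the 32851 windows. A match is a string of letters, not a measured binding site.

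Cyp1a1 (probe set 1422217_a_at) had signals of 8.84, 9.18 and 9.25 in NEDD lungs. In PCNB lungs they were 9.25, 9.44 and 9.95, against 4.93, 5.51 and 7.12 in feed control lungs. All 6 dosed animals thus stood above all 3 controls, and the controls spread far more widely (SD 1.13) than the NEDD (0.22) or PCNB animals (0.363). The mean of both groups was 11.0-fold higher than feed control, a log2 fold change of 3.46 ± 0.39 with a 95% interval of 2.65 to 4.28 (limma adjusted p = 0.00203). NEDD alone gave 3.23 ± 0.45 (limma adjusted p = 0.0358) and PCNB alone 3.70 ± 0.45 (limma adjusted p = 0.00343). The NEDD call was lost without feed control 27 or 28, NEDD 15, or PCNB 18 or 20, PCNB arrays entering through the pooled spread. It was also lost without benzofuran 10 and with the absorbance ratio as a covariate. In a fit of the 9 NEDD, PCNB and feed control arrays alone neither chemical's own comparison gave a call, while the shared call held (limma adjusted p = 0.0245). Both effects are taken against the same 3 feed control mice. The direct NEDD minus PCNB difference, an estimate that uses no control array, was -0.46 with an interval of -1.41 to 0.48. A difference of either sign thus remained within the error. The width of this interval, like that of the others, comes from the spread pooled over all 6 groups, control mice included.

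The corn oil control mice, which were also undosed, had Cyp1a1 signals of 6.29, 7.64 and 5.81. Every NEDD and PCNB array lay above them too, by a log2 fold change of 2.74 ± 0.39 (limma adjusted p = 0.0475). That call was lost without feed control 28, without benzofuran 10, with the absorbance ratio as a covariate and without any 1 NEDD or PCNB array. NDA lungs held far more Cyp1a1, at 11.53, 11.88 and 12.02, and NEDD and PCNB together lay below NDA by a log2 fold change of -2.49 ± 0.39 (limma adjusted p = 0.00118). The order of the feed groups was therefore NDA, then PCNB and NEDD, which did not differ beyond their error, then feed control. The value against feed control rested on which control mice were counted. Leaving out mouse 27 gave 3.00, leaving out mouse 29 gave 4.09, and leaving out mouse 28 gave 3.29 with the call lost (limma adjusted p = 0.0512). With the actin difference as a covariate it was 3.65 (limma adjusted p = 0.00261), as large as without it, and with the absorbance ratio 3.58 (limma adjusted p = 0.00843).

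Ces1g (1449486_at) moved less and with a narrow spread. Its signals were 6.05, 5.98 and 6.21 in NEDD lungs and 6.42, 6.15 and 6.44 in PCNB lungs. Feed control lungs had 5.48, 5.13 and 5.37, below every dosed animal. The shared effect was 1.84-fold, a log2 fold change of 0.88 ± 0.11 with a 95% interval of 0.66 to 1.11 (limma adjusted p = 0.00303). PCNB alone passed in the fit of all arrays at 1.01 ± 0.12 (limma adjusted p = 0.00343), and NEDD alone did not at 0.76 ± 0.12 (limma adjusted p = 0.0925). Their difference, NEDD minus PCNB, was -0.25 with an interval of -0.52 to 0.01. The call for both together was lost without feed control 28, at 0.78 (limma adjusted p = 0.0699), and was kept with the actin difference as a covariate, at 0.92 (limma adjusted p = 0.00495).

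Against corn oil control, where Ces1g was at 5.76, 5.75 and 5.59, all 6 arrays again lay higher, but the log2 fold change of 0.51 ± 0.11 did not pass (limma adjusted p = 0.967). NDA lungs stood at 10.08, 10.04 and 10.00. NEDD and PCNB lay below NDA by a log2 fold change of -3.83 ± 0.11 (limma adjusted p = 6.66e-13). The small step of NEDD and PCNB above the undosed mice is visible in the plot of both called genes, as is the higher level of NDA.

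**Figure D1:**
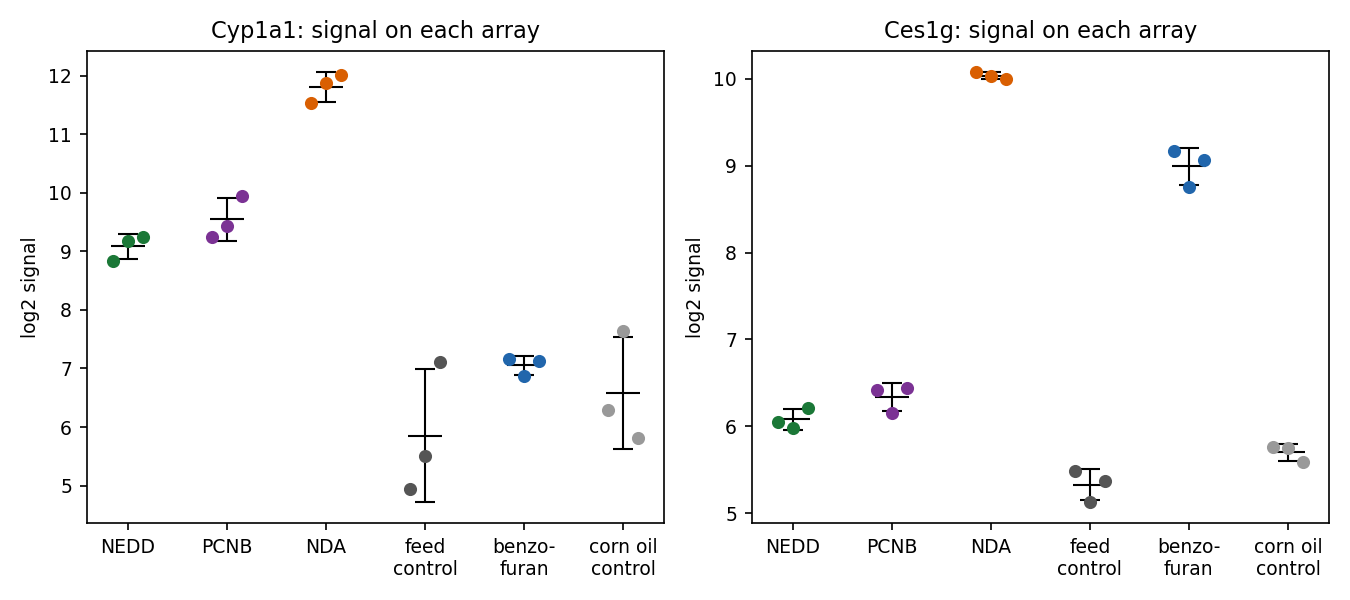
Log2 signal of Cyp1a1 (left) and Ces1g (right) on each of the 18 arrays, by group; points are animals and bars the mean and SD of 3. NEDD and PCNB animals lie above all 6 undosed animals and below NDA in both panels, and the feed control mice spread from 4.93 to 7.12 for Cyp1a1.

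The remaining transcripts gave no call. Within each chemical's own comparison limma called 1 probe set for NEDD (Cyp1a1, 0.00435%) and 2 for PCNB (Cyp1a1 and Ces1g, 0.00870%). Beyond Cyp1a1, 1 other probe set lay past 2-fold in the shared effect, that of the retinoic acid hydroxylase Cyp26b1 at -1.04, which was not called and was singled out after its value was seen. The 95% interval of the shared effect had a median half-width of 0.254 and lay within 1.5-fold for 88.3% of probe sets and within 2-fold for 99.2%. Shared changes of at least 2-fold were thus outside the interval for nearly all tested transcripts, and smaller ones were often not detectable with 3 arrays per group. In simulated data of the same size 200 probe sets were changed per run, with noise independent between probe sets. Limma recovered 61.8% of those given a 1.5-fold change. For a 2-fold change it recovered 92.8%, and for a 4-fold change 99.4%. With fewer true changes the adjusted threshold is stricter, so that these shares can overstate the recovery in the real data.

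**Figure D2:**
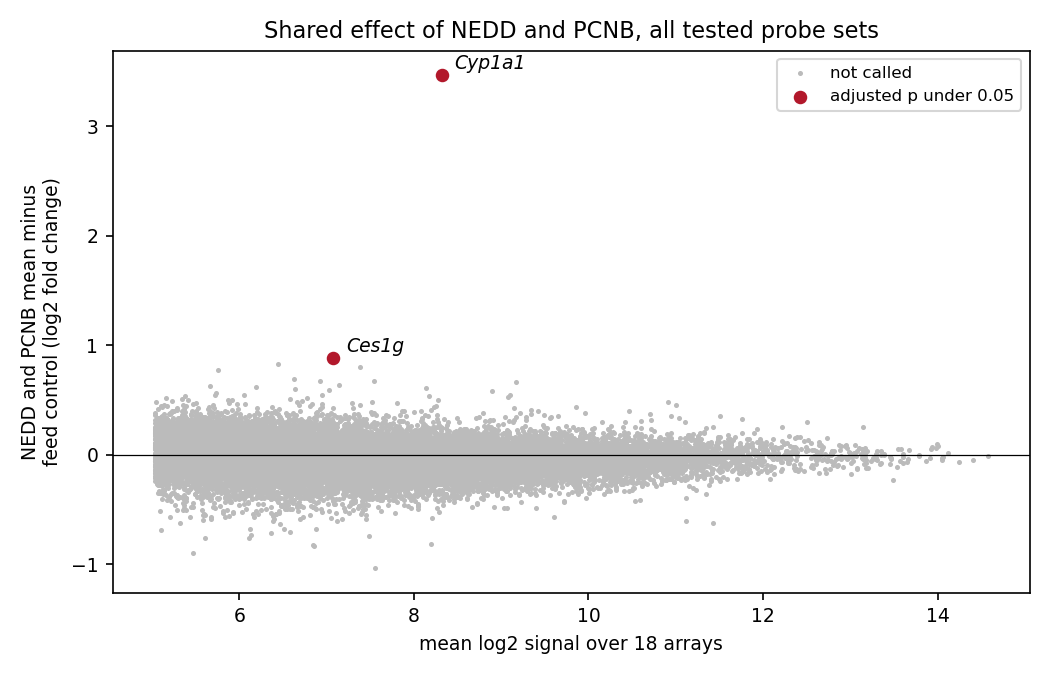
Log2 fold change of the NEDD and PCNB mean minus feed control (vertical) against the mean log2 signal over 18 arrays (horizontal), 1 point for each of 22988 probe sets. Red points are the 2 called, Cyp1a1 at 3.46 and Ces1g at 0.88; grey points were not called.

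Other members of the AhR list were measured beside Cyp1a1. Of 11 genes listed, 7 were tested and 1, Cyp1a1, was called higher, with 0 lower (0.0154% of all genes were called higher with 1 probe set per gene). The median of the 7 was 0.10, against -0.02 for all genes tested. The quinone reductase Nqo1 had 6.61, 6.46 and 6.73 with NEDD and 6.82, 7.09 and 6.68 with PCNB, against 6.33, 6.38 and 6.22 in feed control. The groups did not overlap, but the log2 fold change of 0.42 ± 0.17 did not pass (limma adjusted p = 0.791). Cyp1b1, a monooxygenase of the same family, overlapped with feed control at 0.18 ± 0.18, and so did Tiparp, a feedback inhibitor of the receptor, at 0.10. The receptor itself, Ahr, was at -0.15 ± 0.13, its partner Arnt at -0.14 ± 0.09 and the aldehyde dehydrogenase Aldh3a1 at -0.08. Cyp1a2 and the receptor's repressor Ahrr lay below the filter.

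Of 15 carboxylesterases listed, 7 were tested and 1, Ces1g, was called higher. Their median was -0.06. Genes of this family are close in sequence, and cross-hybridisation of the Ces1g probe set was not tested. Ces1f, the next in rank, was at 0.31 ± 0.16 by a probe set whose suffix marks binding to several transcripts. Ces2b lay below feed control on all 6 arrays (5.26, 5.26 and 5.13 with NEDD and 5.27, 5.19 and 4.87 with PCNB, against 5.39, 5.61 and 5.54 in feed control), by -0.35 ± 0.12, without passing. Ces4a (0.18), Ces1e (-0.06), Ces1d (-0.12) and Ces2g (-0.15) were nearer to 0.

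**Figure D3:**
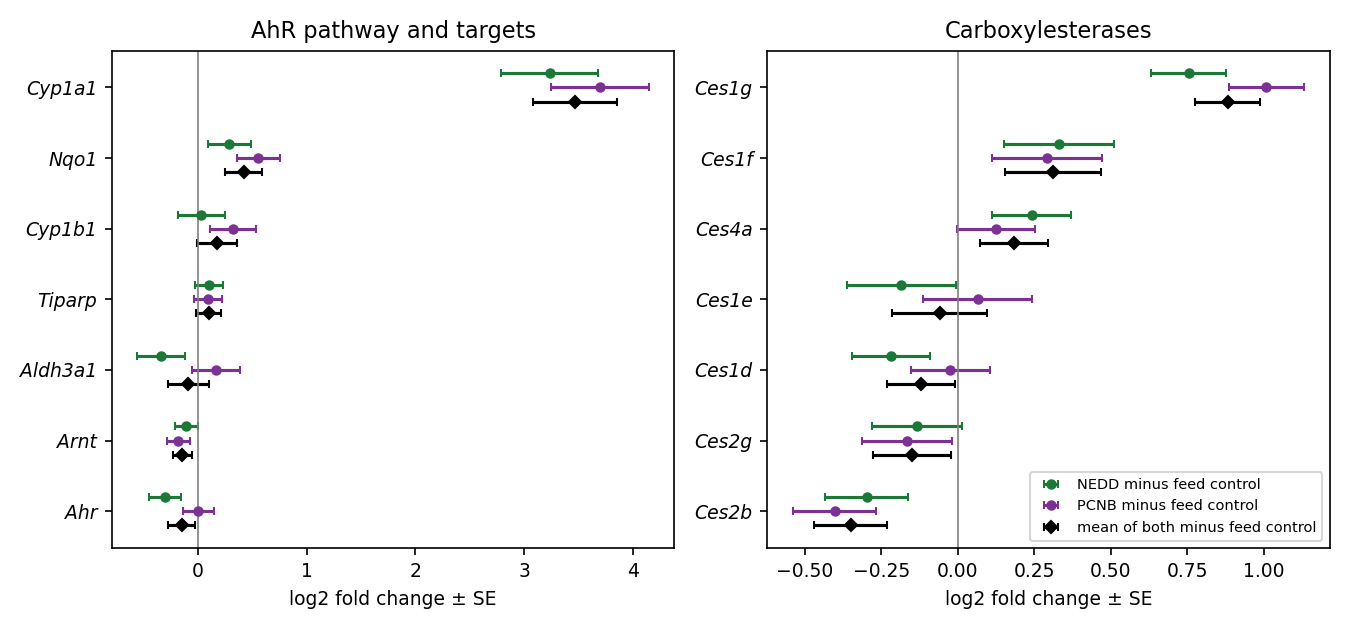
Log2 fold change with its SE for the tested members of the AhR list (left) and the carboxylesterases (right), for NEDD, PCNB and the mean of both, each minus feed control. Cyp1a1 and Ces1g stand apart from the other members, which lie between -0.40 and 0.56 for each chemical.

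Since NEDD and PCNB share their control mice, a deviation of those 3 animals would enter both effects alike and cannot be told apart from a shared effect in this comparison. All 6 arrays lay above all 3 feed control arrays for 296 probe sets (1.29%) and below them for 455 (1.98%). Asked to lie beyond all 3 corn oil control arrays as well, 30 remained above (0.131%) and 18 below (0.0783%). That makes 751 of either side (3.27%) beside feed control alone and 48 (0.209%) beside both control groups. The share that would lie so by chance was not worked out, so neither count is shown to exceed it. Against corn oil control alone limma called 1 probe set, Cyp1a1 (0.00435%). With the mean of both control groups as the reference, Cyp1a1 was at 3.10 (limma adjusted p = 5.50e-04) and Ces1g at 0.70 (limma adjusted p = 0.00485). These 2 were again the only probe sets called.

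A few of the 48 probe sets beyond all 6 undosed arrays are given as examples, chosen after their values were seen. They stand for no group, and the list of conjugating enzymes, which holds Gstp1, had a median of -0.035 against feed control over 19 genes. Gstp1, a glutathione transferase, had 12.19, 12.00 and 12.17 with NEDD and 12.05, 12.04 and 12.20 with PCNB. Feed control had 11.93, 11.84 and 11.81, and corn oil control 11.79, 11.86 and 11.99. The step above feed control was 0.25 ± 0.08 and above corn oil control 0.23, neither of them called. The aldo-keto reductase Akr1b8 was at 0.32 ± 0.12 against feed control and at 0.36 against corn oil control. Pgd, an enzyme of the pentose phosphate pathway that yields NADPH, was at 0.16 and 0.22 in the same comparisons. All 3 lay below NDA, by -0.65 for Gstp1, -0.84 for Akr1b8 and -0.76 for Pgd, and each of these differences was called. The dipeptidase Dpep1 (0.32), which cleaves glutathione products, and Gpx3 (0.16), the secreted glutathione peroxidase, were among the others beyond the undosed arrays. C1qb, a complement gene of macrophages, lay below them at -0.25 by a probe set other than its brightest, which was at -0.18.

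Genes next in rank to the called pair were followed although they did not pass. They are the 18 named genes of smallest unadjusted p whose NEDD and PCNB arrays did not overlap feed control. Their log2 fold changes ran from 0.31 to 0.49 for 9 genes and from -0.90 to -0.32 for 9, all with a limma adjusted p of 0.791. Among those above feed control were Nasp, a histone chaperone (0.49), Nsl1, a kinetochore protein (0.48), the zinc finger gene Zfp128 (0.47), the protease inhibitor Wfdc12 (0.44) and Ddah1, which degrades a natural inhibitor of nitric oxide synthase (0.38). C2cd2 was at 0.48 and Arhgap30 at 0.36. Among those below were the transcription factor Plagl2 (-0.90), Dzank1 (-0.57), Zfp975 (-0.54), Tmem41b, a lipid scramblase of the endoplasmic reticulum (-0.50), Tmem184c (-0.40), the tubulin folding cofactor Tbce (-0.39) and the secretory GTPase Rab27b (-0.32).

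The corn oil control mice often lay between, as with Zfp128, whose difference was 0.09 against them, and Ddah1, at 0.09. Their mean differed from feed control in the same direction as NEDD and PCNB in each of the 18 genes. The NDA mean did so too in all but Muc4 and Fgg, without a call. Against feed control NDA was at 0.45 in Zfp128, 0.44 in Nasp, -0.57 in Zfp975, -0.78 in Plagl2 and 0.05 in Rassf1. In these genes the direction was not particular to NEDD and PCNB. The genes were picked because the feed control arrays lay outside all NEDD and PCNB arrays. Other groups set against the same feed control mice can share the direction through that choice alone, so nothing further is drawn from it. Of the 18, only Letm1, a protein of the inner mitochondrial membrane, and the tumour suppressor Rassf1 stood clear of both control groups. Letm1 had 5.64, 5.65 and 5.78 with NEDD and 5.63, 5.67 and 5.82 with PCNB. Its feed control values were 5.48, 5.26 and 5.44 and its corn oil control values 5.46, 5.47 and 5.47. The log2 fold change was 0.31 ± 0.08 against feed control and 0.23 against corn oil control. Rassf1 was at 0.33 ± 0.09 and 0.29, by a probe set whose suffix marks binding to several transcripts. Other probe sets did not always follow. By the brightest probe set of the gene the shared value was -0.00 for Plagl2, -0.11 for C2cd2, -0.17 for Arhgap30, -0.01 for Nasp, -0.07 for Letm1, -0.06 for Tmem41b, -0.14 for Zfp975 and 0.15 for Ddah1.

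The mucin gene Muc4 and Fgg, the fibrinogen gamma chain, lay below feed control with NEDD and PCNB and below NDA. Muc4 had 6.78, 6.77 and 6.71 with NEDD and 6.84, 6.74 and 6.45 with PCNB, against 7.19, 7.56 and 6.99 in feed control and 7.90, 7.82 and 7.82 with NDA. Fgg had 4.87, 4.86 and 4.87 with NEDD and 4.99, 4.95 and 4.63 with PCNB, against 5.16, 5.97 and 5.32 in feed control and 5.94, 6.19 and 6.22 with NDA. NEDD and PCNB animals lay low in both genes and NDA high in Muc4, while the NDA and feed control values of Fgg overlapped. All NEDD and PCNB values of Fgg lay below 5.03, the limit of the filter on low signal. Corn oil control overlapped NEDD and PCNB in both genes, at 7.09, 7.48 and 6.81 for Muc4 and 5.18, 5.52 and 4.97 for Fgg. The shared difference from feed control did not pass (-0.53 ± 0.14 and -0.62 ± 0.17), whereas that from NDA did, at -1.13 ± 0.14 for Muc4 (limma adjusted p = 1.47e-04) and -1.25 ± 0.17 for Fgg (limma adjusted p = 3.21e-04). The Muc4 probe set has a suffix that marks possible cross-hybridisation, and 1 other probe set of the gene had the same sign.

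**Figure D4:**
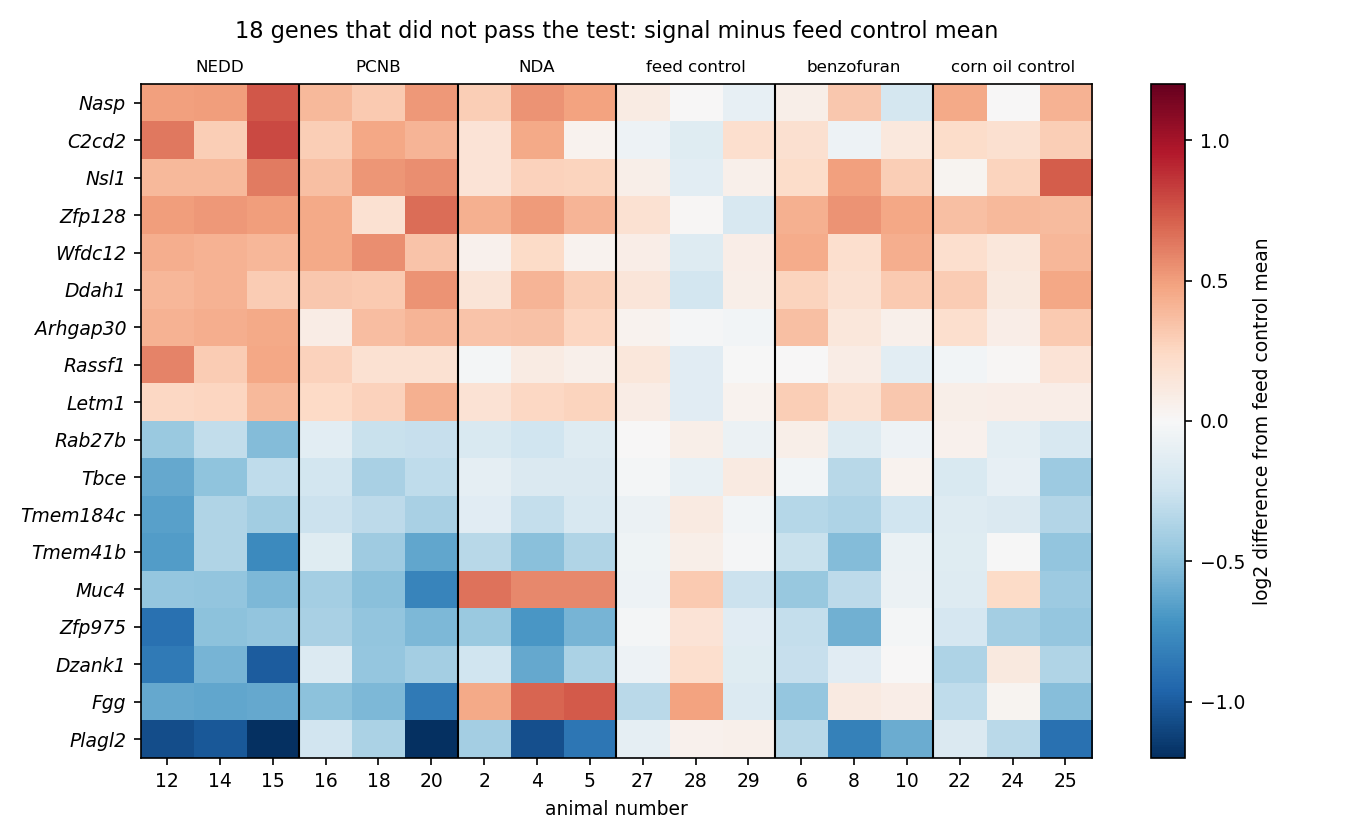
Log2 signal minus the feed control mean (colour) for the 18 genes of smallest p that were not called, 1 column for each animal. NEDD and PCNB columns are of 1 colour within a gene, corn oil control columns are often paler but of the same colour, and NDA differs from them in Muc4 and Fgg.

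Set directly against NDA, the third chemical in feed, NEDD and PCNB together were higher in 47 probe sets (0.204%) and lower in 329 (1.43%), 1.64% of those tested. Without benzofuran 10 the count was 718. Of 25 NRF2 targets tested, 21 were lower than with NDA, beside 1.68% of all genes, with a median of -0.76. Against feed control 0 of the 25 were called by limma and 4 had an unadjusted p under 0.05, all higher, beside 2.79% of all genes that were higher at such a p. These were the thioredoxin reductase Txnrd1 (0.23 ± 0.08), Nqo1, the sulfiredoxin Srxn1 (0.29 ± 0.13) and Gclm, a subunit of the enzyme that begins glutathione synthesis (0.20 ± 0.09). Txnrd1 had 9.63, 9.50 and 9.74 with NEDD and 9.69, 9.84 and 9.86 with PCNB, against 9.40, 9.58 and 9.45 in feed control, where NEDD 14 overlapped. The list's median was 0.01 with NEDD and 0.20 with PCNB against feed control. Its mean per array was -0.01 to 0.05 with NEDD and 0.14 to 0.24 with PCNB, against -0.08 to 0.05 in feed control and 1.07 to 1.16 with NDA, so that PCNB animals lay above feed control and NEDD animals among it.

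Conjugating enzymes were lower than with NDA in 10 of 19 tested genes, beside 1.68% of all genes, and called against feed control in 0. By limma 1 of them (Gstp1, higher) had an unadjusted p under 0.05 against feed control. Of all genes 2.79% were higher at such a p. Of the lung monooxygenases 0 of 10 were called against feed control and 0 had such a p, and Cyp2e1, the largest, was at 0.41 ± 0.32. Targets of the receptors CAR and PXR had a median of 0.04 over 9 genes and those of PPAR alpha -0.05 over 13, with limma calling 0 in either list and 0 at an unadjusted p under 0.05. Genes of cholesterol and fatty acid synthesis (17 tested), heat shock (12), the unfolded protein response (16) and p53 targets (13) gave medians of -0.08, -0.00, -0.05 and 0.04 and 0 calls. In these 4 lists together limma gave an unadjusted p under 0.05 to Sesn2 (0.25 ± 0.11), a stress-induced regulator of growth signalling, and to Bbc3 (0.31 ± 0.10), a promoter of apoptosis. Both were higher, a share near the 2.79% of all genes that were higher at such a p.

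A single probe set was called between NEDD and PCNB (0.00435%), that of Marco, a scavenger receptor of alveolar macrophages. Its signals were 6.73, 6.23 and 6.28 with NEDD, 8.04, 7.48 and 7.52 with PCNB and 7.22, 7.76 and 7.39 in feed control. NEDD animals lay below all others, and PCNB animals overlapped feed control. The NEDD minus PCNB difference was -1.27 ± 0.16 (limma adjusted p = 0.013), and the mean of both against feed control, at -0.41, describes neither chemical. The call was lost without NEDD 15, without PCNB 16 and in a fit of the NEDD, PCNB and feed control arrays alone. Against feed control NEDD was at -1.04 ± 0.16 (limma adjusted p = 0.0779). Over 15 alveolar macrophage genes the list mean per array was -0.23 to -0.16 with NEDD, -0.09 to 0.15 with PCNB and -0.10 to 0.13 in feed control. In whole lung fewer cells of a type and less RNA per cell cannot be told apart.

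Other lists also parted the chemicals, though limma called none of their members, where 0.00769% of all genes were called lower with NEDD than with PCNB. Interferon response genes had a median of -0.14 with NEDD and 0.23 with PCNB over 20 genes, and the list mean was -0.21 to 0.04 on NEDD arrays, 0.24 to 0.29 on PCNB arrays and -0.09 to 0.08 on feed control arrays. Oas2, which senses viral RNA, had 6.32, 6.48 and 6.42 with NEDD and 7.29, 7.08 and 6.83 with PCNB, against 6.62, 6.31 and 6.38 in feed control. PCNB stood above both. Not every member parted the chemicals. Rsad2, an antiviral enzyme with the largest shared value of the list (0.67 ± 0.32), had 9.72, 9.29 and 9.38 with NEDD and 9.35, 9.34 and 8.91 with PCNB, against 8.92, 8.51 and 8.56 in feed control. Undosed corn oil mouse 22 had 10.37, above every NEDD and PCNB animal, and corn oil control spread widely in this gene (SD 1.01). In the shared effect Oas2 (0.30 ± 0.11) and the antiviral GTPase Mx2 (0.22 ± 0.09) had an unadjusted p under 0.05. Clock genes had a median of 0.42 with NEDD and -0.06 with PCNB over 16 genes. The list mean was 0.20 to 0.30 on NEDD arrays and -0.33 to 0.08 on PCNB arrays, against -0.20 to 0.17 on feed control arrays and -0.02 to 0.35 on corn oil arrays, so that undosed mice reached the level of NEDD. The clock repressor Per2 was at 0.75 with NEDD and -0.03 with PCNB, and its activator Arntl at -0.78 and 0.04. Corn oil mice 24 and 25 had Per2 signals of 7.56 and 7.40 and Arntl signals of 6.79 and 6.73, beside NEDD means of 7.52 and 7.31. The glucocorticoid target Ddit4 was at 0.97 with NEDD and 0.00 with PCNB, and NEDD 14 (7.44) lay apart from NEDD 12 and 15 (8.63 and 8.66). The hour of killing is not given in the sources used here.

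Markers of ciliated cells, which move mucus along the airways, lay below feed control with NEDD, while PCNB overlapped it. Of 19 tested, 0 were called by limma and 7 had an unadjusted p under 0.05, all lower, beside 3.32% of all genes that were lower at such a p. The median was -0.21 for the mean of both, -0.27 with NEDD and -0.16 with PCNB, and -0.18 for both against corn oil control. Rsph4a, of the radial spokes of cilia, was the sole member below feed control on all 6 arrays, at -0.33 ± 0.12, where 2.18% of all genes lay so. The adenylate kinase Ak7 (-0.33 ± 0.10), the dynein chain Dnaic2 (-0.55 ± 0.18) and Spag16 of the central pair (-0.46 ± 0.16) overlapped on at least 1 array. The list mean per array was -0.34 to -0.30 with NEDD and -0.22 to -0.06 with PCNB, against -0.20 to 0.11 on feed control arrays and -0.25 to 0.12 on corn oil arrays. NEDD animals lay below every undosed animal and PCNB animals did not.

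Cell cycle genes lay above feed control and below corn oil control with NEDD, and PCNB overlapped feed control. The list's median over 23 genes was 0.24 for the mean of both against feed control and -0.38 against corn oil control, with 0 called by limma in either comparison. In the first, 7 had an unadjusted p under 0.05, all higher, beside 2.79% of all genes. The list mean was 0.32 to 0.36 with NEDD and 0.01 to 0.28 with PCNB, against -0.14 to 0.13 on feed control arrays and 0.45 to 0.66 on corn oil arrays. Racgap1, needed for cell division, had 6.36, 6.26 and 6.38 with NEDD and 5.95, 5.97 and 6.07 with PCNB, against 5.70, 5.96 and 5.84 in feed control and 6.32, 6.39 and 6.44 in corn oil control. In this gene NEDD lay above feed control and PCNB overlapped it. The direction of the list's median thus turned with the control group used.

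Neutrophil genes had a median of -0.24 over 13 genes. The abundant calgranulins S100a8 (-0.62 ± 0.22) and S100a9 (-0.61 ± 0.23) were lowest, and S100a8 was at 11.53, 11.35 and 11.64 with NEDD and at 10.85, 10.62 and 11.94 with PCNB, against 11.81, 11.93 and 12.10 in feed control. PCNB 20 overlapped feed control. Mean S100a8 was 11.52 in corn oil control, 11.59 with NDA and 11.51 with NEDD, and mean S100a9 was 11.22, 11.19 and 11.27. Undosed corn oil mice thus stood at the level of NEDD in both genes. Heme and globin genes had a median of 0.21 over 9 genes, with Fech, the last enzyme of heme synthesis, at 0.44 ± 0.18. Markers of alveolar type 2 (median -0.04), alveolar type 1 (0.04), endothelial (0.03), club (0.01) and smooth muscle cells (0.05) and of fibroblasts (0.00) had shared medians near 0, and so did T and NK cell (-0.06), B and plasma cell (-0.05) and interstitial macrophage genes (-0.02). Some of these average unlike values, since T and NK cell genes were at -0.19 with NEDD and 0.13 with PCNB, club cell genes at -0.20 and 0.07, and cardiac muscle genes at -0.18 and 0.23. Of cardiac muscle (0.00), skeletal muscle (0.10), fat (-0.07) and lymph node stroma (-0.12), tissues that a lung sample can carry along, 0 members were called. In all these cell type lists limma called 0 members for the shared effect. Outside the ciliated list an unadjusted p under 0.05 was found for Marco, S100a8, S100a9, the T cell receptor chain Cd3e (0.28), the endothelial peptide Apln (0.26) and the matrix gene Sparc (0.25). Immediate early genes had a median of 0.05 over 17 (0.17 with NEDD and -0.02 with PCNB). Glucocorticoid targets had 0.23 with NEDD and -0.12 with PCNB over 14, which their shared median of 0.05 does not show.

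**Figure D5:**
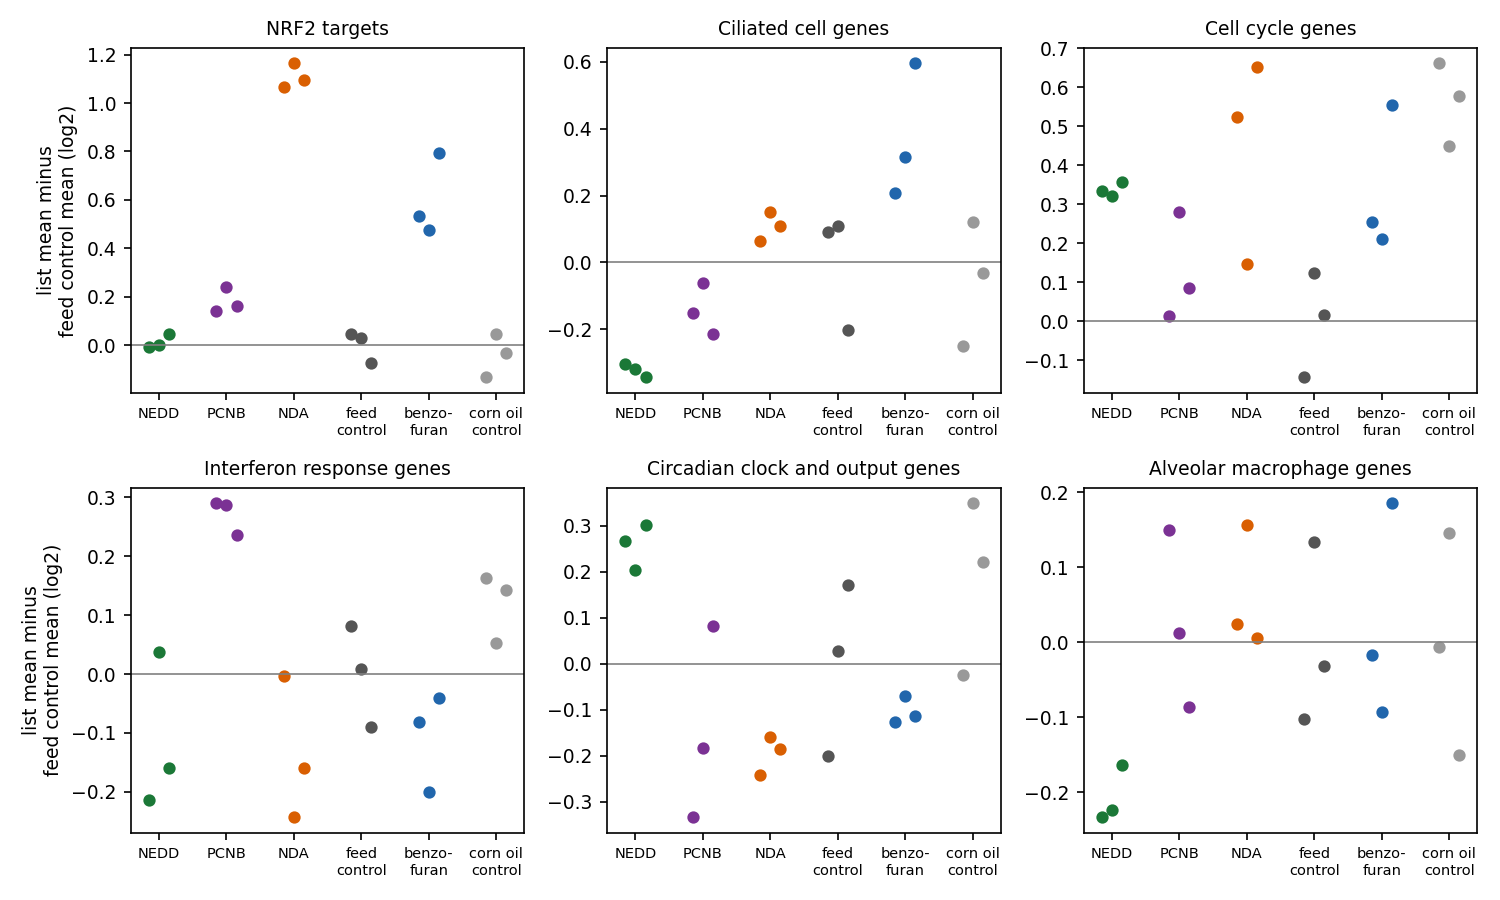
Mean log2 signal of 6 gene lists on each array minus its feed control mean, by group; points are animals. NRF2 targets are high with NDA and at most 0.24 with NEDD or PCNB, ciliated cell genes are lowest with NEDD, cell cycle genes lie above feed control and below corn oil control with NEDD, and interferon response genes lie above feed control with PCNB and not with NEDD.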

How the data were processed

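Total RNA of 18 lungs was hybridised to Affymetrix whole-genome mouse arrays, per the labels. The deposited values are log2 signals (range 2.48 to 14.78), the base being judged from that range. The sources used here do not give the summary and normalization methods, and scanner intensities were not used here. Of 45101 probe sets 34945 had 1 gene symbol, 932 several and 9160 none in the platform annotation, beside 64 controls; 34741 matched RefSeq GRCm38.p6 by gene identifier. A probe set was tested if its mean over 18 arrays lay above the 40th percentile of all such means (5.03), which left out 11957. Array medians lay between 5.678 and 5.803, and the values were not rescaled.

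Group means over 18 arrays (12 residual degrees of freedom) were fitted by lmFit, contrasts.fit and eBayes of limma (version 3.58.1, R version 4.3.3), and p-values, two-sided, were adjusted by Benjamini-Hochberg over the probe sets tested in each comparison. An exact permutation test of 3 animals against 3, as for 1 chemical beside feed control, has a smallest p of 0.1. The shared effect sets 6 animals against 3, for which that bound was not worked out. The limma tests instead draw on a spread estimated from all 6 groups. Animals are separate mice with 1 array each. Gene lists (33) took 1 probe set per gene, the brightest, and were described by counts and medians. Named were called genes without overlap between arrays, up to 15 each way, filled up to 20 with non-overlapping genes of smallest p, and up to 4 members of each list. Gene names that are clone names were skipped. The members, lists and comparisons were chosen with earlier results of these data known. The fit was tested on simulated data in 5 runs with 200 of 22988 probe sets changed; 5.7% of calls were false. Alternatives were other filters and scalings, array weights, RNA quality covariates, other controls and leaving out arrays. The 4034 tested probe sets without a single symbol held 0 limma calls and 250 with an unadjusted p under 0.05.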

Additional observations from a re-analysis of the deposited data

Results flagged for a closer look

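Marco differed between the chemicals under the same contrast with feed control. The NEDD minus PCNB difference was -1.27 on the log2 scale (limma adjusted p = 0.013), lower with NEDD in 3 of 3 animals. The call was lost without NEDD 15, without PCNB 16 and in a fit of the NEDD, PCNB and feed control arrays alone.

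The list of 15 T and NK cell genes lay on opposite sides of the feed control mean with NEDD (list mean -0.14) and PCNB (0.07), in all 3 animals of each. This difference was not tested, and the feed control arrays spread from -0.13 to 0.08 on the same list.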

How the results depend on the processing

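The shared effect kept its 2 calls, Cyp1a1 and Ces1g, in 19 of 20 settings in which each was followed. Exceptions in the count were limma's array weights (113 called, 52 higher and 61 lower, of which 55 were moved alike with arrays that did not overlap), the larger of both chemicals' p-values (1, Cyp1a1) and leaving out an array (0 to 2 called, and 0 to 2 moved alike). The 0 arose without feed control 28, where 637 probe sets had an unadjusted p under 0.05. Cyp1a1 was then at 3.29 and Ces1g at 0.78. Counts with array weights were 2520 for NEDD, 123 for NEDD minus PCNB, 1084 against corn oil control and 3231 against NDA. With only NEDD, PCNB and feed control arrays limma called 0 for NEDD, 0 for PCNB and 0 for their difference (2710, 958 and 1114 at an unadjusted p under 0.05). Without benzofuran 10 the counts were 0 for NEDD, 0 against corn oil control and 718 against NDA, and with the absorbance ratio as a covariate, chosen after seeing the data, 0 for NEDD and 0 against corn oil control. With 1 probe set per gene NEDD gave 3, and with the actin difference as a covariate the comparison with NDA gave 762. Leaving out 1 array gave 0 to 2 for NEDD, 0 to 2 for NEDD minus PCNB, 0 to 1 against corn oil control and 310 to 365 against NDA, and 2 throughout for PCNB. The count for NEDD was 0 without feed control 27 or 28, NEDD 15 or PCNB 18 or 20, and that for NEDD minus PCNB 0 without NEDD 15 or PCNB 16. Against corn oil control it was 0 without feed control 28 and without any 1 NEDD or PCNB array. Of 693 values of named and list genes under these settings 662 kept their side of the threshold. Called values among them kept their sign, and uncalled values shifted by less than the spread, their sign not being followed. Of the other values 2 lost the call, 17 gained it with array weights, 12 moved beyond the spread and 0 called values changed sign. The cause of these differences was not tested. No paired analysis was possible because no animal number occurs in more than 1 group. With 3 arrays per group and 200 probe sets changed per run, 61.8% of simulated 1.5-fold changes were recovered, and smaller ones were not simulated. No detection calls were used here.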
